A study of Mus musculus with 8 samples.

Results

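The genes described here build the nuclear pore, the nuclear lamina and the transport machinery that works through the pore, in primary mouse embryonic fibroblasts with and without cryptochromes. The list of 43 genes holds 26 nucleoporins, 6 proteins of the lamina and inner nuclear membrane, 8 importins and exportins and 3 genes of the Ran cycle. A member was read from the probe set annotated to it alone, and from the one of highest mean over the 8 arrays where it had several. Of the 43, 40 had such a probe set and all 40 lay above the floor on mean signal (6.05 on the log2 scale, the 40th percentile), among 9515 genes tested in all. Nup35, Nup210 and Tpr had no single-gene probe set and are not analysed here.

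The nuclear pore is a ring of nucleoporins set in the nuclear envelope. Y complexes and inner ring proteins form its scaffold, nucleoporins rich in phenylalanine-glycine repeats fill its channel, and filaments and a basket extend from its faces. Importins and exportins carry cargo through it, with direction given by Ran, which binds GTP in the nucleus and GDP in the cytoplasm. The lamina, a mesh of A-type and B-type lamins, lies under the inner membrane. In dividing cells the envelope and most pores come apart in mitosis and are rebuilt in each daughter nucleus.

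Arrays were hybridised with RNA from 4 Cry DKO lines, with the genotype Cry1-/-|Cry2-/-, and from 4 WT lines, with 1 array per independent line. All 8 lines were primary fibroblasts of a nearly C57BL/6J strain (more than 7 backcrosses), dividing without synchronisation in DMEM/F10 medium with 10% FCS at 3% oxygen, and untreated. The labels do not state the embryos' age or sex. Cultures were measured in bulk, so a change in the share of cells at a stage or of a type cannot be told apart from a change in RNA per cell.

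Each difference is the Cry DKO mean minus the WT mean in log2 units (n = 4 lines each), values by line follow replicates 1 to 4, and adjusted p-values come from limma over all 9515 genes with a threshold of 0.05. Base 2 was inferred from the span of the deposited values, 0.0675 to 14.3, and percent changes rest on it. Array medians lay between 6.78 and 6.79. Cry1 had signals of 6.32, 5.84, 6.50 and 6.50 in Cry DKO lines, against 7.27, 6.51, 6.95 and 6.42 in WT lines (difference -0.50, SE 0.21, limma adjusted p = 0.168). Cry2 had 6.86, 7.12, 6.85 and 6.64 in Cry DKO lines, against 7.15, 7.34, 6.97 and 7.34 in WT lines (difference -0.34, SE 0.13, limma adjusted p = 0.132). Neither gene passed, and the position of the probes relative to the deleted parts was not known here, so these values do not check the labels. Of 12 tested fibroblast markers, Vim, Fn1 and the collagen genes Col1a1, Col1a2 and Col3a1 had means over 13 in both genotypes, while Pdgfra, Dcn and Lum lay below the floor. Of the 12, 1 (Col5a1) passed as lower in Cry DKO lines and none as higher, and their median difference was -0.11.

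Other gene groups differed between the same lines. Of 52 tested genes of DNA replication and mitosis, 49 passed as higher in Cry DKO lines, with a median difference of 0.44. Their mean signal was 9.25 to 9.30 over Cry DKO lines and 8.76 to 8.91 over WT lines. Of 17 tested markers of macrophages and blood cells, 10 passed as higher, with a median of 0.80 and a mean signal of 8.78 to 9.75 over Cry DKO lines and 8.12 to 8.77 over WT lines. All 17 lay above the floor, Ptprc, Csf1r and Adgre1 among them. The endothelial markers Cdh5, Kdr, Tek, Emcn and Esam lay below it, and Pecam1, Cldn5 and Tie1 had no single-gene probe set. Above it lay 2 epithelial markers (Krt18 and Krt19), 3 neural and glial ones (Nes, Tubb3 and Stmn2) and 1 of skeletal muscle (Des). None of these passed in either direction. The mean over 3 Y-linked genes was 2.66 and 2.96 in Cry DKO lines 1 and 4 and 2.86 in WT line 1, and 7.74 to 7.94 in the other lines. The part of these differences in the results below was not tested.

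The main comparison asked whether the machinery of the nuclear envelope differs in expression between Cry DKO and WT fibroblasts. Part of it was higher in Cry DKO lines: B-type lamin Lmnb1, the inner membrane proteins Tmpo and Lbr, the import adaptor Kpna2, the exportins Xpo1 and Cse1l and the scaffold nucleoporins Nup37, Nup107, Nup160 and Nup155. Of the 40 tested members, these 10 (25%) rose, and 4.95% of all tested genes passed as higher. None passed as lower in limma, where 1 member, Kpna6, was lower at an unadjusted p under 0.05, and 4.22% of all genes passed as lower. The rises lay between 15.4% and 36% on the linear scale.

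Differences were above 0 for 33 of the 40 members and for 48.5% of all tested genes, and their median was 0.15 against -0.01 for all genes. The mean over the 40 members was 9.63, 9.64, 9.60 and 9.55 in Cry DKO lines and 9.49, 9.43, 9.43 and 9.48 in WT lines. Each Cry DKO line lay above every WT line. For 12 members (9 of the called ones, with Nup62, Nup153 and Ndc1) the lines of the genotypes did not overlap, with all 12 higher in Cry DKO lines, where 8.31% of all tested genes were separated in that direction. The count of called members was 4 without Cry DKO line 2, 5 without Cry DKO line 3, WT line 2 or WT line 3, and 7 to 9 without any 1 of the others.

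**Figure D1:**
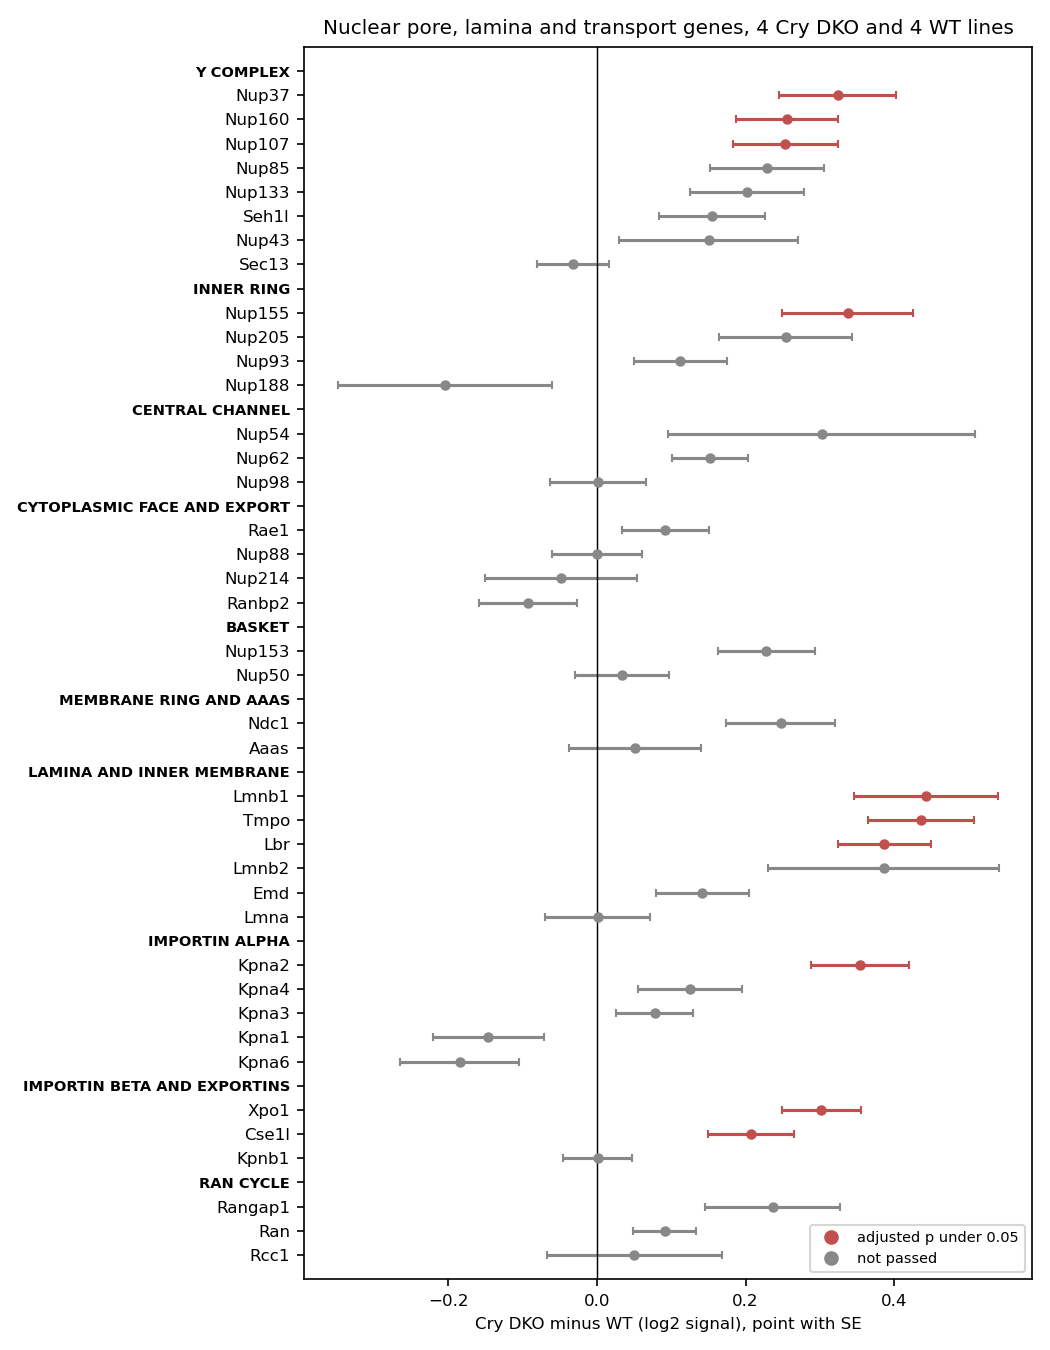
Difference between Cry DKO and WT lines (log2 signal, x axis) with its standard error for the 40 tested members, grouped by role, with n = 4 lines per genotype. Red points passed an adjusted p of 0.05 in limma. All 10 lie between 0.21 and 0.44, and the lamina holds the 3 highest of them.

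Promoters of the 4 members that stayed called whichever array was left out, Tmpo, Lbr, Kpna2 and Xpo1, are shown as the clearest set of members that rose together. They were chosen after their values were seen. Each window runs from 250 bases before to 50 after the gene's start (RefSeq, GRCm38.p6, outermost start of the gene), written 5′ to 3′ on the gene's strand, with capitals marking matches to CHR and CCAAT motifs. The windows are chr10:91171570-91171869 on the minus strand for Tmpo, chr1:181842352-181842651 on the minus strand for Lbr, chr11:106999476-106999775 on the minus strand for Kpna2 and chr11:23255791-23256090 on the plus strand for Xpo1.
Tmpo: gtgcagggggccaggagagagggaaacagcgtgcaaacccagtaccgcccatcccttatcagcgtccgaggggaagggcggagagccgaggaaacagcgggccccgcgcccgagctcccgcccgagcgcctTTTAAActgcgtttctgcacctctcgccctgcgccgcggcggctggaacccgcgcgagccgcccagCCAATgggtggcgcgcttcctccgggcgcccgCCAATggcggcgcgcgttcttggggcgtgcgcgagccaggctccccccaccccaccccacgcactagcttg
Lbr: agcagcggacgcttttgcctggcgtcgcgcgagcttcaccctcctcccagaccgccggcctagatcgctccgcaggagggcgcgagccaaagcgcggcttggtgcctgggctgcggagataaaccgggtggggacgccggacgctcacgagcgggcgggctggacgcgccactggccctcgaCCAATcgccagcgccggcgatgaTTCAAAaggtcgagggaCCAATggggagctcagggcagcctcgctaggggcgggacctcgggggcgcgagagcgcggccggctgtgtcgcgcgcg
Kpna2: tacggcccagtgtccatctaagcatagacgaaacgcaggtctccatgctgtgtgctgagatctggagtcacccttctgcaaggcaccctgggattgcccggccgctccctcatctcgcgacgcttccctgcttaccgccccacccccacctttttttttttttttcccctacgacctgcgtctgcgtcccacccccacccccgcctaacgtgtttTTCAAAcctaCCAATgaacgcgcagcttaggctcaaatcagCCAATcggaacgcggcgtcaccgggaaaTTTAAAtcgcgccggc
Xpo1: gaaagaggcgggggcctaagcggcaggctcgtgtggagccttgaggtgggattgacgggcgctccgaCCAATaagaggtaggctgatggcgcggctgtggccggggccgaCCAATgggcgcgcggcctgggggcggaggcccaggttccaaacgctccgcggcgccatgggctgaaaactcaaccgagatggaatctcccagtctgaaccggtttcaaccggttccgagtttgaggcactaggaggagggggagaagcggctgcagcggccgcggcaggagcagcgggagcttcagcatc

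Promoter windows were found for 34 of the 43 members, 8 of them called and 24 tested but not called. The CHR, an element of cell cycle promoters bound by the DREAM and MuvB complexes, was searched as TTTGAA or TTTAAA on both strands and was found in 4 of 8 called and 6 of 24 other tested members, against 18.8% of the promoters of tested genes and 27.9% of all 27025. CCAAT, the box bound by NF-Y, was found on either strand in 6 of 8 called and 9 of 24 other tested members, against 38.8% of the promoters of tested genes and 38% of all 27025. The 4 windows shown each hold 2 CCAAT boxes. Tmpo has a CHR match 119 bases before its start, Lbr 45 and Kpna2 35 bases before, and Kpna2 has another after the start, while Xpo1 has none in this window. The E-box CACGTG, which CLOCK and ARNTL bind, was in 0 of 8 called and 5 of 24 other tested members, against 10.7% of the promoters of tested genes and 7.24% of all 27025. E2F sites, searched as TTTCCCGC, TTTCGCGC, TTTGGCGC or TTTGCCGC on both strands, were in none of these 32 windows, against 4.46% of the promoters of tested genes and 2.33% of all 27025. No match overlapped another in the windows shown. A match is a description of the letters and not evidence of binding.

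The lamina and inner membrane genes had the highest median of the 4 main groups, 0.39 over 6 members, of which 3 rose and 3 did not pass. With the floor at the 60th percentile, which left out Lmnb2, the median was also 0.39. Tmpo encodes the LAP2 proteins, which tether lamins and chromatin. It had signals of 10.18, 10.21, 10.00 and 10.08 in Cry DKO lines, against 9.77, 9.76, 9.53 and 9.66 in WT lines, a difference of 0.44 (SE 0.07, limma adjusted p = 0.00517), or 35.3% on the linear scale. All Cry DKO lines lay above all WT lines. The other probe sets of Tmpo above the floor had differences of 0.46, 0.32 and 0.22, and with each probe set tested 2 of the 4 passed.

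Lbr, the lamin B receptor, binds heterochromatin to the inner membrane and also acts as a sterol reductase. Its signals were 10.22, 9.99, 10.08 and 10.09 in Cry DKO lines, against 9.76, 9.63, 9.69 and 9.75 in WT lines, and it rose by 0.39 (SE 0.06, limma adjusted p = 0.0048). The groups did not overlap, with the highest value in Cry DKO line 1. Emd, or emerin, a LEM-domain protein like LAP2, had 9.63, 9.67, 9.69 and 9.69 in Cry DKO lines, against 9.43, 9.66, 9.55 and 9.48 in WT lines. WT line 2 reached the Cry DKO range, and the difference of 0.14 did not pass (SE 0.06, limma adjusted p = 0.187).

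Lmnb1 and Lmnb2 encode the B-type lamins, which stay at the membrane. Lmnb1 had 8.0, 8.12, 7.96 and 8.14 in Cry DKO lines, against 7.69, 7.71, 7.36 and 7.69 in WT lines, a rise of 0.44 (SE 0.10, limma adjusted p = 0.0195). WT line 3 was the lowest, and even the highest WT line lay below each Cry DKO line. The second Lmnb1 probe set had a difference of 0.45. Without Cry DKO line 2 the call of Lmnb1 ended (limma adjusted p = 0.0501). Lmnb2 had 6.53, 6.62, 6.44 and 6.16 in Cry DKO lines, against 5.81, 6.27, 5.92 and 6.19 in WT lines. The groups overlapped through Cry DKO line 4, and the difference of 0.39 did not pass (SE 0.16, limma adjusted p = 0.149). This is the dimmest member, with a mean of 6.24 just above the floor. It met the floor through its Cry DKO lines (mean 6.43), since its WT mean of 6.0487 lay below the floor of 6.0505.

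Lmna, which encodes lamins A and C, had 12.19, 12.21, 12.07 and 11.87 in Cry DKO lines, against 12.13, 12.09, 12.06 and 12.06 in WT lines. Its Cry DKO lines lay on both sides of the WT lines, and the difference was 0.00 (SE 0.07, limma adjusted p = 0.997), with differences of 0.01 to 0.05 in its 3 other probe sets. The genotype difference of Lmnb1 exceeded that of Lmna by 0.44 (SE 0.13, n = 4 lines per genotype, exact two-sided permutation p = 0.0286, adjusted p = 0.0381 over 4 such contrasts), where 0.0286 is the smallest p that 70 assignments allow. For Lmnb2 minus Lmna it was 0.38 (SE 0.12, n = 4 lines per genotype, exact two-sided permutation p = 0.0286, adjusted p = 0.0381 over 4 such contrasts). In both contrasts each of the 4 Cry DKO lines lay above every WT line. Lmnb2 met the floor through its Cry DKO lines, so its contrast describes dim values and is no separate support. Its p also entered the shared adjustment, so the adjusted p of 0.0381 for Lmnb1 minus Lmna rests partly on it. With the mean of all probe sets of each gene above the floor, both values lost their call, at 0.42 and 0.36 (exact permutation test, adjusted p = 0.0857 each). Both also lost it without Cry DKO line 2, 3 or 4 or WT line 3, and Lmnb2 minus Lmna without Cry DKO line 1, with values of 0.34 to 0.50 and 0.29 to 0.46 over the 8 fits without 1 array. Part of these losses came through the shared adjustment, in which a contrast at its smallest p passes only when others reach it too.

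**Figure D2:**
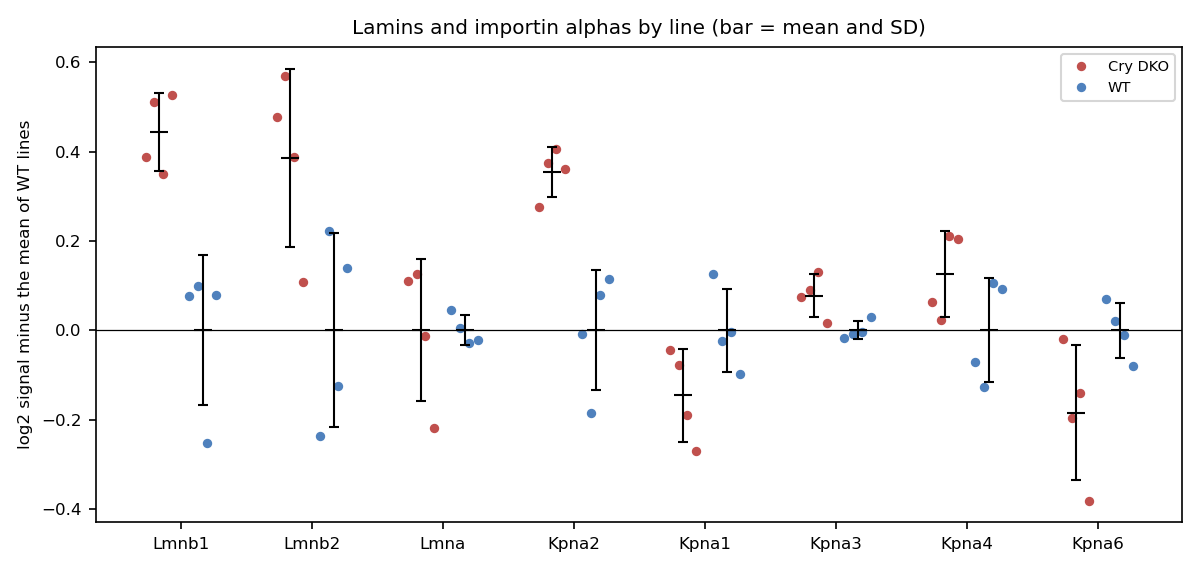
Signal of each line (log2, minus the mean of the WT lines of that gene) for the 3 lamins and 5 importin alphas, Cry DKO lines in red and WT lines in blue, with mean and SD over 4 lines. Lmnb1 and Kpna2 separate the genotypes without overlap, with differences of 0.44 and 0.35, while the points of Lmna and of the other importin alphas overlap.

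The importins and exportins had a median of 0.10 over 8 members, of which 3 rose. Importin alphas are adaptors that hold the nuclear localisation signal of a cargo, and of the 5 measured only Kpna2 passed. Kpna2 had 11.63, 11.73, 11.76 and 11.71 in Cry DKO lines, against 11.34, 11.17, 11.43 and 11.47 in WT lines. It rose by 0.35 (SE 0.07, limma adjusted p = 0.01), or 27.8%, without overlap between the groups. Kpna1 had 9.07, 9.03, 8.92 and 8.84 in Cry DKO lines, against 9.24, 9.09, 9.11 and 9.01 in WT lines, with a difference of -0.15 that did not pass (SE 0.07, limma adjusted p = 0.249). The sign of this value depends on the probe set, since the other 4 probe sets of Kpna1 had differences of 0.03 to 0.09.

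Kpna6, of the same subfamily as Kpna1, had 9.20, 9.03, 9.08 and 8.84 in Cry DKO lines, against 9.29, 9.24, 9.21 and 9.14 in WT lines. Cry DKO line 4 was the lowest and Cry DKO line 1 lay within the WT range, and the difference of -0.18 did not pass (SE 0.08, limma adjusted p = 0.179). Kpna3 had 9.92, 9.93, 9.97 and 9.86 in Cry DKO lines, against 9.82, 9.83, 9.84 and 9.87 in WT lines (difference 0.08, SE 0.05). Its groups overlapped only through Cry DKO line 4 and WT line 4. Kpna4, a close paralogue of Kpna3, had 10.84, 10.80, 10.99 and 10.99 in Cry DKO lines, against 10.71, 10.65, 10.89 and 10.87 in WT lines (difference 0.13, SE 0.07). Cry DKO lines 1 and 2 lay within the WT range, and neither gene passed.

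The difference of Kpna2 exceeded the mean of the other 4 importin alphas by 0.39 (SE 0.08, n = 4 lines per genotype, exact two-sided permutation p = 0.0286, adjusted p = 0.0381 over 4 such contrasts), and each Cry DKO line lay above every WT line. With all probe sets of each gene averaged, the excess was 0.33 and did not pass (exact permutation test, adjusted p = 0.0857). It also missed the threshold without Cry DKO line 2, 3 or 4 or WT line 3 (exact permutation test, adjusted p = 0.0571 each), with 0.34 to 0.43 over the 8 fits. The adjustment runs over the 4 contrasts together, that of the dim Lmnb2 among them, so the adjusted p of 0.0381 rests partly on Lmnb2. The adjusted p rises when another contrast loses its smallest p. These misses are therefore no measure of how far Kpna2 depends on those lines. Kpnb1, importin beta, carries the adaptor and its cargo through the pore. Its mean was 10.99 ± 0.05 in Cry DKO lines and 10.99 ± 0.01 in WT lines (SD, n = 4), with a difference of 0.00 (SE 0.05, limma adjusted p = 0.996). The value depends on the probe set, since the others had differences of -0.14, 0.14 and 0.06. None of them passed when each was tested.

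Both exportins of the list rose. Xpo1, or CRM1, exports proteins with a leucine-rich signal and had 10.89, 10.96, 10.86 and 10.98 in Cry DKO lines, against 10.72, 10.60, 10.58 and 10.60 in WT lines. It rose by 0.30 (SE 0.05, limma adjusted p = 0.00724), the groups did not overlap, and its second probe set rose by 0.42 when each probe set was tested. Cse1l, which returns importin alpha to the cytoplasm, had 10.59, 10.58, 10.53 and 10.46 in Cry DKO lines, against 10.44, 10.34, 10.27 and 10.29 in WT lines. It rose by 0.21 (SE 0.06, limma adjusted p = 0.0482). WT line 1 lay closest to the lowest Cry DKO line, line 4. The call of Cse1l held without Cry DKO line 4 or WT line 1 and ended without any of the other 6, with limma adjusted p-values of 0.0395 to 0.127. Over the 9 settings that kept all arrays and added no covariate, Cse1l passed in 6 (limma adjusted p up to 0.0857). The difference of Cse1l minus Xpo1 was -0.09 (SE 0.05, n = 4 lines per genotype, exact two-sided permutation p = 0.0857, adjusted p = 0.0857 over 4 such contrasts) and did not pass, except without Cry DKO line 1 (-0.12, exact permutation test, adjusted p = 0.0381).

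None of the 3 Ran cycle genes passed in limma, and Rangap1 came nearest. Rangap1 activates GTP hydrolysis by Ran at the cytoplasmic face of the pore, and had 8.74, 8.88, 8.86 and 8.54 in Cry DKO lines, against 8.68, 8.43, 8.48 and 8.49 in WT lines (difference 0.24, SE 0.09, limma adjusted p = 0.132). Cry DKO line 4 lay within the WT range, and without that line it passed (adjusted p = 0.0474). Ran itself had 13.02, 12.94, 13.01 and 13.09 in Cry DKO lines, against 12.94, 12.95, 12.89 and 12.91 in WT lines (difference 0.09, SE 0.04, limma adjusted p = 0.206). Its other 4 probe sets had differences of 0.16 to 0.25, all above the one that represents the gene, and none passed when each was tested. Rcc1, the exchange factor that loads Ran with GTP on chromatin, had 8.24, 8.36, 8.13 and 7.94 in Cry DKO lines, against 8.13, 8.39, 8.05 and 7.90 in WT lines, a wide overlap with a difference of 0.05 (SE 0.12).

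Of 23 tested nucleoporins 4 rose, with a median difference of 0.15, and the 4 were scaffold proteins. With the macrophage marker mean as a covariate, which itself differs between the genotypes, the nucleoporin median was 0.0445, and none passed. Of the 4 that rose, Nup107 (0.34), Nup37 (0.39) and Nup155 (0.41) then had higher differences and Nup160 (0.17) a lower one. Their SEs grew to 0.11 to 0.14. The Y complex, the outer scaffold that also binds kinetochores in mitosis, had 8 tested members, of which 3 rose, and 7 had differences above 0. Its mean over members was 9.15 to 9.17 over Cry DKO lines, against 8.92 to 9.01 over WT lines. Nup37 had 8.95, 9.06, 9.09 and 9.21 in Cry DKO lines, against 8.70, 8.70, 8.70 and 8.92 in WT lines, a rise of 0.32 (SE 0.08, limma adjusted p = 0.0289). WT line 4 stood above the other WT lines, though still below every Cry DKO line. Nup160 had 9.02, 9.01, 9.04 and 8.92 in Cry DKO lines, against 8.86, 8.65, 8.68 and 8.79 in WT lines (rise 0.26, SE 0.07, limma adjusted p = 0.0421). Nup107 had 8.75, 8.83, 8.83 and 9.01 in Cry DKO lines, against 8.55, 8.61, 8.60 and 8.63 in WT lines (rise 0.25, SE 0.07, limma adjusted p = 0.048). Neither pair of groups overlapped, and Nup107 was highest in Cry DKO line 4.

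The other Y complex members did not pass: Nup85 had a difference of 0.23 (SE 0.08), Nup133 one of 0.20 (SE 0.08), Seh1l one of 0.15 and Nup43 one of 0.15. Nup85 passed without Cry DKO line 4 (limma adjusted p = 0.036). Sec13, which also forms the coat of vesicles leaving the endoplasmic reticulum, had the lowest difference of the complex, -0.03 (SE 0.05, limma adjusted p = 0.722), with 11.03 ± 0.05 in Cry DKO lines and 11.07 ± 0.04 in WT lines (SD, n = 4). The scaffold calls lay near the threshold. Over the 9 settings that kept all arrays and added no covariate, Nup37 passed in 9, Nup107 in 6 and Nup160 in 5. Each call ended in 6 or 7 of the 8 fits without 1 array: Nup37 held without Cry DKO line 1 or WT line 4 (limma adjusted p of 0.0207 to 0.0802 over the 8 fits), Nup160 without Cry DKO line 4 or WT line 1 (0.0436 to 0.111), Nup107 without Cry DKO line 1 alone (0.0454 to 0.12).

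The inner ring, which anchors the channel to the membrane, had 4 tested members, and Nup155 rose. Its signals were 8.52, 8.88, 8.73 and 8.78 in Cry DKO lines, against 8.33, 8.30, 8.39 and 8.53 in WT lines, a rise of 0.34 (SE 0.09, limma adjusted p = 0.0383). It is the called member whose groups overlapped, through Cry DKO line 1 and WT line 4, and the call held without either of these and ended without any of the other 6 (0.019 to 0.0972). The second Nup155 probe set had a difference of 0.08. For Nup205 the difference was 0.25 (SE 0.09, limma adjusted p = 0.103) and 0.02 in a second, dim probe set, and for Nup93 0.11. Nup188, a large scaffold protein related to Nup205, had 8.50, 8.40, 8.05 and 7.83 in Cry DKO lines, against 8.64, 8.45, 8.25 and 8.27 in WT lines. That difference, -0.20 (SE 0.14, limma adjusted p = 0.414), was the lowest of the 40 members, did not pass and came from widely spread lines.

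No member of the other nucleoporin subgroups passed in limma. Nup153, Ndc1 and Nup62 came nearest, with limma adjusted p-values of 0.0501, 0.0585 and 0.0883. In the central channel Nup54 had the highest difference, 0.30 (SE 0.21), with 9.59, 9.18, 9.55 and 9.49 in Cry DKO lines, against 9.38, 8.38, 9.41 and 9.43 in WT lines. WT line 2 lay far below the others, and the other Nup54 probe sets above the floor had differences of 0.34 and 0.06. Nup62, the core of the channel's repeat proteins, showed 0.15 (SE 0.05, limma adjusted p = 0.0883) without overlap of the groups, and 0.15 to 0.17 in 3 further probe sets. Nup98 had the lowest of the channel, 0.00 (SE 0.06).

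In the basket on the nuclear face, Nup153, which binds lamins and importins, had 9.92, 9.91, 9.95 and 10.10 in Cry DKO lines, against 9.77, 9.63, 9.82 and 9.75 in WT lines. The groups did not overlap, and the difference of 0.23 (SE 0.06) missed the threshold (limma adjusted p = 0.0501) but passed in 4 of 9 other settings. Its second probe set above the floor had a difference of 0.0089. Nup50, its partner there, had 0.03 (SE 0.06), and 0.12 and 0.17 in its other probe sets. Ndc1, a membrane protein that anchors the pore, had 8.25, 8.33, 8.35 and 8.31 in Cry DKO lines, against 8.17, 7.95, 8.03 and 8.10 in WT lines, again without overlap (difference 0.25, SE 0.07, limma adjusted p = 0.0585). With each probe set tested, another Ndc1 probe set passed with 0.54 (adjusted p = 0.00451), while the remaining one had 0.44 and did not pass. Aaas, or aladin, which binds Ndc1, had a difference of 0.05 (SE 0.09).

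The cytoplasmic face and mRNA export subgroup had a median difference of -0.02 over 4 members. Rae1, an mRNA export factor, had the highest, 0.09 (SE 0.06, limma adjusted p = 0.359), and Ranbp2, the giant filament protein that holds SUMO-modified RanGAP1, the lowest, -0.09 (SE 0.07, limma adjusted p = 0.421). Nup214 and Nup88, which form a complex on that face, had differences of -0.05 and 0.00. Subgroup means were 9.54 to 9.74 over Cry DKO lines and 9.65 to 9.73 over WT lines and overlapped widely. Whether this subgroup differs from the scaffold was not tested.

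**Figure D3:**
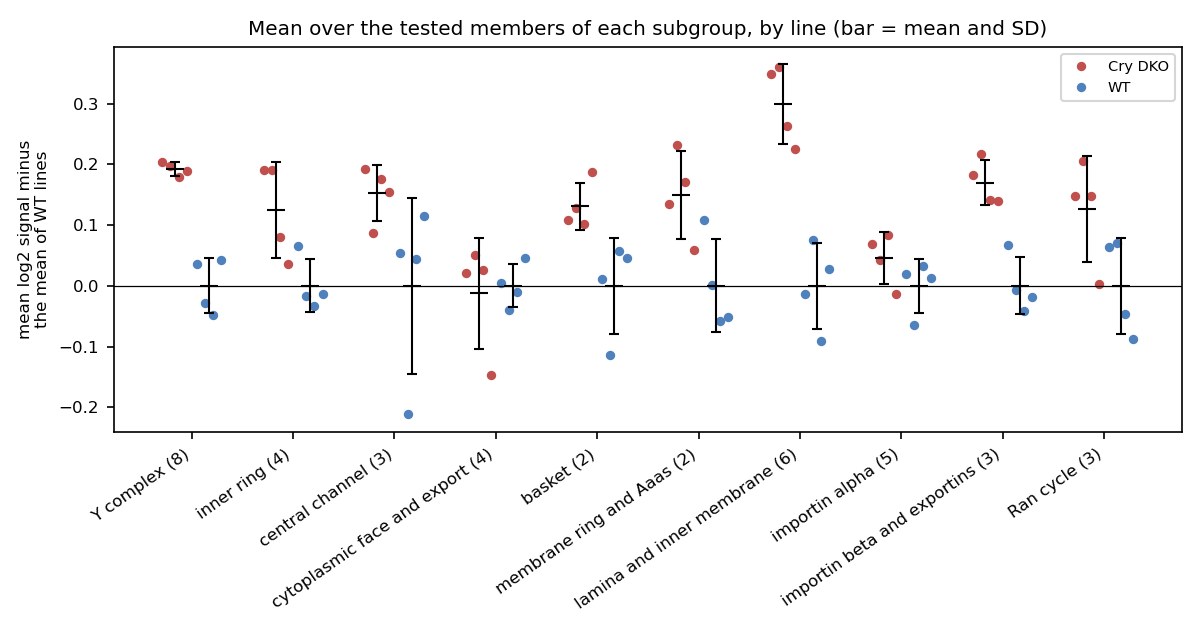
Mean log2 signal over the tested members of each subgroup (number in parentheses), minus the mean of the WT lines, for each Cry DKO line (red) and WT line (blue), with mean and SD over 4 lines. Y complex means lie at 9.15 to 9.17 in Cry DKO lines, against 8.92 to 9.01 in WT lines before this subtraction, while the lines overlap for the cytoplasmic face, the inner ring, the central channel, the membrane ring, the importin alphas and the Ran cycle.

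**Figure D4:**
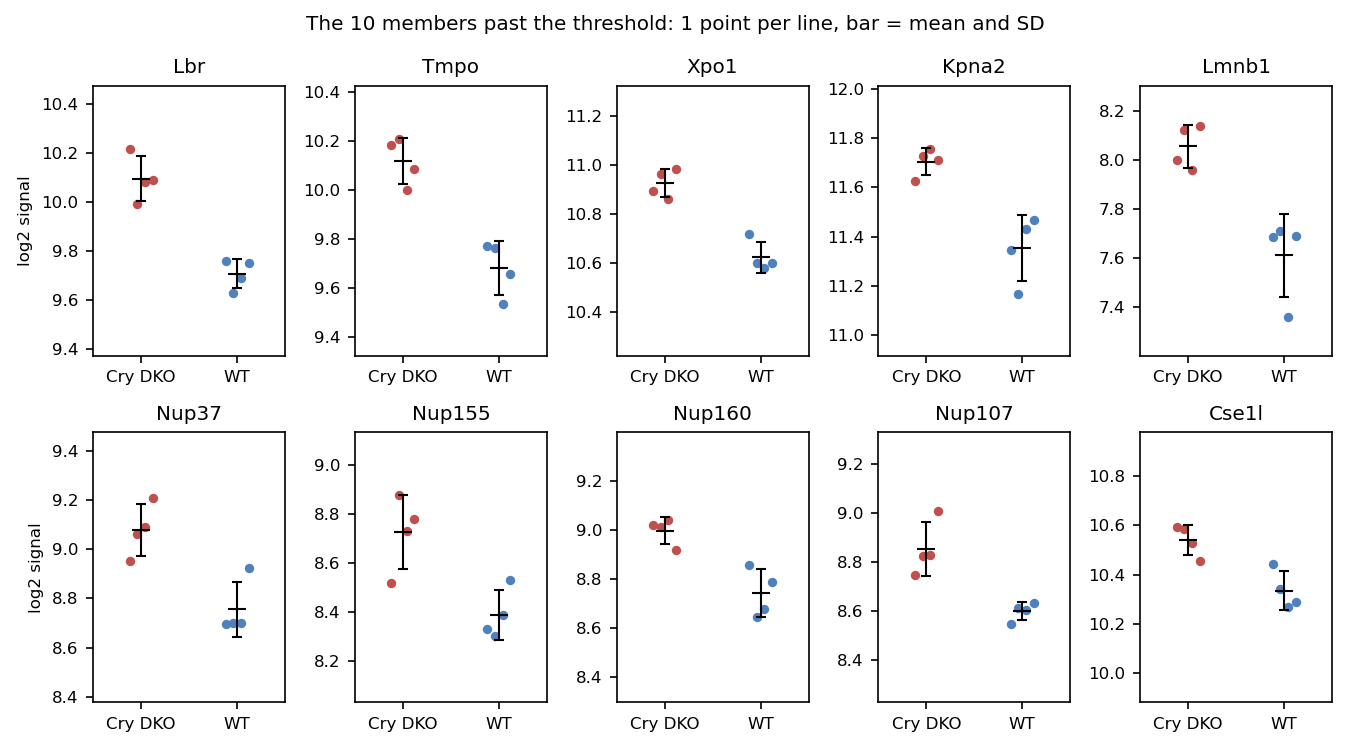
Log2 signal of each line for the 10 members that passed, ordered by p, with Cry DKO lines in red, WT lines in blue and the mean and SD over 4 lines as bars. Every panel spans the same number of log2 units, and the groups overlap for Nup155 alone.

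The members' other probe sets, on the same arrays, gave further readings of the same lines. Of 25 members with more than 1 probe set above the floor, 21 had differences of 1 sign throughout, and no member had probe sets called in opposite directions. The 48 probe sets that do not represent their gene had a median difference of 0.15, with 43 above 0 and 3 called as higher. Shares over all probe sets were not computed for these counts, so they describe the members alone and are not read as an excess. Those of called members (6 probe sets of 4 genes) had a median of 0.37, between 0.08 and 0.46.

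Other genes of the same pathway were taken from lists that leave out the members. Of 62 tested, 6 passed as higher (9.68%, against 4.95% of all genes) and none as lower, with Lemd2 (-0.23) lower at an unadjusted p under 0.05. The lowest was Tnpo2, an importin for RNA-binding proteins, with -0.27 (SE 0.13, limma adjusted p = 0.201), and the median of the 62 was 0.05. Pom121, a membrane nucleoporin, had 9.99, 9.95, 9.97 and 9.92 in Cry DKO lines, against 9.77, 9.73, 9.66 and 9.74 in WT lines, and rose by 0.23 (SE 0.05, limma adjusted p = 0.0213) without overlap. Ranbp1, a cofactor of RanGAP1, rose by 0.18 (SE 0.04), Ipo5, an importin of the beta family, by 0.24 (SE 0.06) and Rangrf, or MOG1, a Ran-binding protein, by 0.29 (SE 0.08). In the nuclear envelope list Vrk1, the kinase that phosphorylates the lamina tether BANF1, rose by 0.35 (SE 0.10), which was the highest of the 62, and Tmem97, a sterol-regulated membrane protein, by 0.31 (SE 0.08). Limma adjusted p-values of these 5 lay between 0.0315 and 0.0441. The count of 6 was 0 without Cry DKO line 3 or WT line 3, 1 without Cry DKO line 2 or WT line 2, 2 without WT line 4, 3 without WT line 1 and 1 with no intensity trend in the fit.

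**Figure D5:**
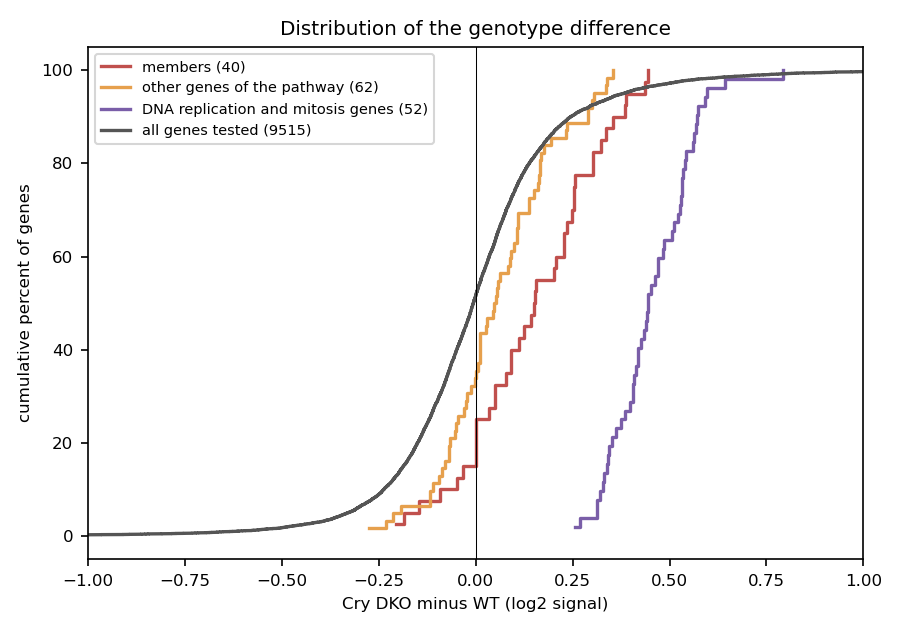
Cumulative percent of genes (y axis) against the difference between Cry DKO and WT lines (log2, x axis) for the 40 members, 62 other genes of the pathway, 52 genes of DNA replication and mitosis and all 9515 tested genes. The members lie between all genes, with a median of -0.01, and the replication and mitosis genes, with a median of 0.44.

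Set beside the genes of DNA replication and mitosis in the same lines, 10 of 40 members passed with a median of 0.15, against 49 of 52 with a median of 0.44. A test of the difference between the lists was not run. Of the 4 main groups the lamina, with a median of 0.39, came nearest to it. With the macrophage marker mean added as a covariate no member passed, and 29 genes passed in all. The differences of the 10 called members then lay between 0.13 and 0.43, below the value without the covariate for 7 of them and above it for 3 (Nup107, Nup37 and Nup155). That of Cse1l was 0.13, against 0.21 without the covariate, and that of Nup160 0.17, against 0.26. With the replication and mitosis mean as the covariate neither a member nor any other gene passed. Both covariates differ between the genotypes themselves. With the Y-linked gene mean in their place 6 members passed as higher and 526 genes in all.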

How the data were processed

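RNA of 8 fibroblast lines was measured on Affymetrix 3′ expression arrays. The deposited table holds log2 signals, a scale inferred from their range. The submitters' processing notes name GCOS with no version, and the authors' summarisation and normalisation are not given in the sources used. The values were used as deposited. A change shared by all RNA cannot be seen after normalisation between arrays. Of 30506 probe sets, 24838 had 1 gene in the platform annotation, 658 several and 4949 none, and 61 were controls. Of the 24838 probe sets, 24757 had a gene identifier found in GRCm38.p6. Only single-gene probe sets at or above the 40th percentile of means (6.05) were tested, 1 per gene, 9515 in all.

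The comparison used limma 3.58.1 (R 4.3.3) with moderated variances that follow intensity, and Benjamini-Hochberg adjustment. Contrasts between related genes used exact two-sided permutation tests over 70 assignments. The spread tested is that between independent lines. Precision is limited by having 4 arrays a group, and tested genes had a median SD of 0.13 within groups. In simulations of this comparison over 9515 genes, limma called 94.8% of genes changed by 1, 63.9% of those changed by 0.5, 15.8% at 0.25 and 0.0794% of genes left alone. Genes were drawn independently. Over the 5 runs 330 to 335 genes were changed at each size and 46575 were left alone. Each run thus changed fewer genes than passed in these data, which makes the adjusted threshold stricter. The rates at 0.25 and 0.5 are therefore not those of the real comparison.

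The members and gene lists were chosen with earlier results of these data known. Named with values are all called members, all lamina, importin alpha and Ran cycle genes, the highest and lowest of each other subgroup, and up to 12 called genes, with the highest and lowest, of the other pathway lists; Cry1 and Cry2 are given in any case. Further members were named after their values were seen. Alternatives were a replicate block, 2 normalisations, 2 filters, another probe set rule, 2 empirical Bayes settings, array weights, 2 thresholds, 3 covariates and each array left out.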

Additional observations from a re-analysis of the deposited data

Results flagged for a closer look

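Single lines stood apart from the other lines of their genotype for 6 of the 96 sets of 4 lines examined (Dixon's test at the 95% level), where chance gives about 1 in 20. Nup37 had its highest WT value, 8.92, in WT line 4, against 8.70 to 8.70 in the other 3 lines. Nup43 had its highest Cry DKO value, 8.43, in Cry DKO line 1, against 8.0 to 8.05 in the other 3 lines. Nup54 had its lowest WT value, 8.38, in WT line 2, against 9.38 to 9.43 in the other 3 lines. Nup214 had its lowest Cry DKO value, 8.10, in Cry DKO line 4, against 8.53 to 8.57 in the other 3 lines. Lmnb1 had its lowest WT value, 7.36, in WT line 3, against 7.69 to 7.71 in the other 3 lines. Xpo1 had its highest WT value, 10.72, in WT line 1, against 10.58 to 10.60 in the other 3 lines. For Xpo1 and Nup37 the outlying WT line lay toward the Cry DKO lines, and for Lmnb1 away from them.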

How the results depend on the processing

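Without 1 array the counts ranged from 382 (without WT line 3) to 684 for all called genes, 4 to 9 for called members and 0 to 7 for other pathway genes called higher; no member passed as lower in any fit run. At thresholds of 0.01 and 0.1 the counts of all called genes were 210 and 1436, 3 and 14 members were higher, and 0 and 10 other pathway genes. With no intensity trend 6 members and 1 other pathway gene were called higher. The labels do not say what a replicate number marks, so the numbers were not taken as pairs. Deviations of same-numbered lines correlated at 0.36, 0.12, 0.23 and -0.01. These were not compared with differently numbered lines, so whether the numbers mark pairs was not tested. The replicate block gave 1050 called genes, 11 members higher and 1 other pathway gene lower; with it Nup160 no longer passed (adjusted p = 0.0515), and Nup153 (0.0432) and Nup205 (0.0402) did. With the macrophage mean as covariate the counts were 29, 0 and 0, and the medians 0.0445 for nucleoporins and 0.30 for the lamina; with the Y-linked mean they were 526, 6 and 3. With the DNA replication and mitosis mean as covariate, which separates the genotypes by itself, 0 genes passed (by limma), and the medians were -0.14 for all members, -0.14 for nucleoporins, -0.0559 for the lamina, -0.12 for importins and exportins and -0.15 for the Ran cycle. Of the 40 members 20 then had the opposite sign. Among the 10 called, 5 reversed (-0.27 for Nup160, -0.30 for Lmnb1, -0.27 for Tmpo, -0.17 for Xpo1 and -0.33 for Cse1l, with SEs of 0.28 to 0.52) and 5 kept their sign (0.48 for Kpna2, 0.48 for Nup107, 0.47 for Nup155, 0.46 for Nup37 and 0.15 for Lbr). With each probe set tested the Ran cycle median was 0.20. With all probe sets averaged the contrasts were 0.33 for Kpna2, 0.42 for Lmnb1 and 0.36 for Lmnb2 (exact permutation adjusted p = 0.0857 each). Without 1 array they ranged over 0.34 to 0.43 for Kpna2, 0.34 to 0.50 for Lmnb1, 0.29 to 0.46 for Lmnb2 and -0.12 to -0.0477 for Cse1l minus Xpo1. Calls ended in 13 of 24 such fits of the first 3. A contrast at the smallest possible p passes the adjustment over 4 contrasts only when others reach it too. Several of these losses thus came through another contrast, and their count is no measure of dependence on single lines. Lmnb2 was not tested with the floor at the 60th percentile. The cause of these changes was not tested. Signal over background limits dim genes such as Lmnb2.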
